A study of Mus musculus with 12 samples.

Results

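The genes described here are the amino acid transporters of the mouse whole genome array, taken as every gene whose name in the array's annotation was a numbered member of the solute carrier families Slc1a, Slc3a, Slc6a, Slc7a, Slc36a, Slc38a or Slc43a. This gave 55 genes and 95 probes, of 27962 gene names and 41174 probes in all. RNA came from hypertrophic zones microdissected from the tibial growth plates of mice aged 14 days, the zone where chondrocytes enlarge before cartilage is replaced by bone, and each of 12 mice had its own array. The question was which genes change when a misfolded protein accumulates in the endoplasmic reticulum of these cells.

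There were 4 groups of 3 mice. Schmid mice carried the collagen X mutation *Col10a1* p.Asn617Lys in both copies of the endogenous gene, and were compared with wildtype mice of the Schmid background (Wt_Schmid). Cog mice carried ColXTgcog, a transgene in which the *Col10a1* promoter drives a thyroglobulin that misfolds, and were compared with wildtype mice of the Cog background (Wt_Cog). The wildtype mice were littermates per the labels, and no other allele or agent was given to any group. In Schmid the misfolding protein is the cell's own collagen X, in Cog it is foreign to cartilage, and Cog mice with 1 or 2 copies of the transgene were not told apart. All RNA went through 2 rounds of linear amplification before labelling with Cy3.

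Amino acid transporters of the plasma membrane bring in the building blocks of protein, and many swap one amino acid for another. The light chains of the Slc7 family reach the membrane only when bound to a heavy chain, *Slc3a2* or *Slc3a1*, and the light chain sets what is carried. When unfolded protein builds up, the kinase Perk (*Eif2ak3*) phosphorylates a translation factor, which favours translation of the transcription factor *Atf4*. *Atf4* and its partners bind the amino acid response element upstream of several transporter genes.

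Promoters are shown first because that element, unlike the array values, can be read directly. The RefSeq table (build GRCm38.p6) held promoters of 36 of the 55 genes, 57 in all, each of 250 bases before and 50 after an annotated start. *Slc7a3*, *Slc7a5*, *Slc38a1* and *Slc1a5* had no entry. The core of the element, TGATGCAA, was searched on both strands and was found in 294 of 32851 promoters in the table (0.895%). Among the transporters it was found in 4 of 57 promoters, which belonged to *Slc7a11*, *Slc1a4* and *Slc7a7*. The promoters of *Slc7a7* overlap, and their matches at -243 and -1 are the same site, counted more than once. By gene the core was found in 3 of 36. The stretches upstream of *Slc7a11* (chr3:50443614-50443763, minus strand), *Slc1a4* (chr11:20332694-20332813, minus strand, ending 20 bases after the start) and *Slc3a2* (chr19:8713898-8714047, minus strand) are printed 5′ to 3′ on the gene's strand, with the core in capitals in either orientation. *Slc7a11* and *Slc3a2* encode the 2 chains of 1 transporter, and *Slc1a4* is shown as the other carrier with the core that passed the test in a mutant.
Slc7a11: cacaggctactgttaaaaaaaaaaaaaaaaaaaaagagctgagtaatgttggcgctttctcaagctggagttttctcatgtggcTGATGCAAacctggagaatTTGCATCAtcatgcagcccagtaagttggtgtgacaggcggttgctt
Slc1a4: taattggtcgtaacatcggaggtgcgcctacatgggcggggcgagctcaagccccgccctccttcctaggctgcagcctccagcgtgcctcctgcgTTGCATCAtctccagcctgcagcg
Slc3a2: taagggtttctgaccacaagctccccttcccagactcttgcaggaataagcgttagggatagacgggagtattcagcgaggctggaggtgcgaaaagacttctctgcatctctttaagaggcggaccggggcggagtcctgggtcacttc
In *Slc7a11* the core stood once in each orientation, at positions -66 and -47, with -1 as the last base before the start. In *Slc1a4* it began at position -4 in the reverse orientation and crossed the start. These letters were not in the window shown for *Slc3a2*. Only the exact letters were searched, within 250 bases before and 50 after a start. Variants of the core and sites further away were not searched, so a gene without a match is not shown to lack the element. The core of the antioxidant response element, TGACNNNGC, was found in 12.4% of all promoters and in 11 of the 57 promoters of transporters, which belonged to 9 genes. The promoters of *Slc7a6* overlap and share the same site, at -68 and -1. No transporter promoter held both motifs, so their matches did not overlap.

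Signals were log2 values after background correction and quantile normalization. Each mutant was compared with its own wildtype by limma, and a gene passed the test when its brightest probe changed by at least 2-fold with an adjusted p no higher than 0.05. Adjusted p values are limma's after Benjamini-Hochberg adjustment over all probes, and errors of fold changes are standard errors (SE). Of the 55 genes, 29 were well above background on all 12 arrays at that probe, 46 on all arrays of at least 1 group, and 3 on no array. The number of arrays, 3 a group, limits the precision, and the median SE of a transporter's log2 fold change in Schmid was 0.21.

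In Schmid, 7 transporters were higher than wildtype and 7 were lower (12.7% each), where 5.8% and 5.75% of all genes were higher and lower. In Cog, 3 were higher (5.45%) and 0 lower, where 1.89% and 0.837% of all genes were higher and lower. By limma 6 transporters had an adjusted p of 0.05 or less in Cog and 16 an unadjusted one, higher or lower. The shares of all genes at these thresholds were not counted, so these numbers cannot be set against the whole array. The median log2 fold change of the 55 genes was -0.27 in Schmid and 0.11 in Cog, beside -0.09 and -0.00 for all genes. The 3 genes that passed in both mutants were *Slc7a11*, *Slc3a2* and *Slc7a3*, and all were higher in both. The plot of the log2 fold changes of both mutants shows them at the upper right, with a further 11 that passed in Schmid and not in Cog. The controls of the mutants were separate mice, and 30 of 55 genes had the same sign in both. How many of all genes did so was not counted.

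**Figure D1:**
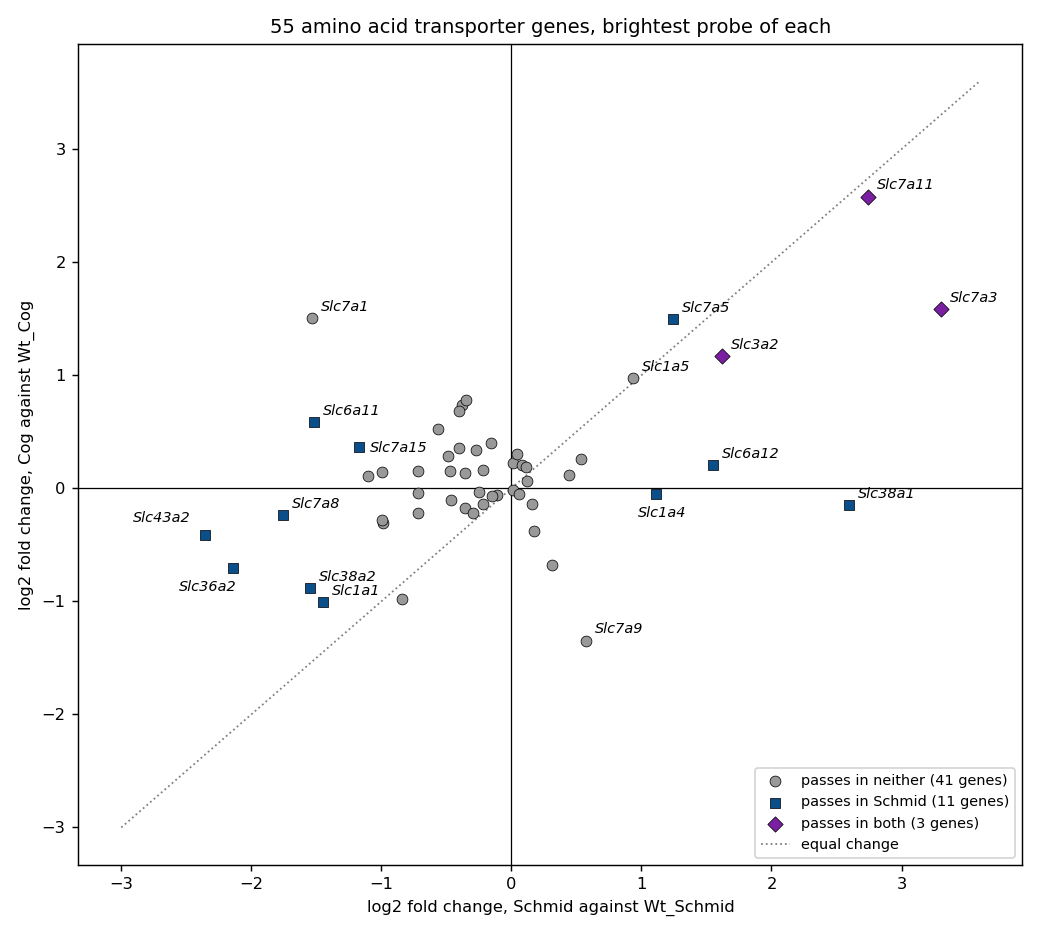
Log2 fold change of each of 55 transporter genes at its brightest probe, Schmid against Wt_Schmid on the horizontal axis and Cog against Wt_Cog on the vertical axis; blue squares passed the test in Schmid (11 genes), purple diamonds in both mutants (3 genes) and grey circles in neither (41 genes). *Slc7a11* lies at 2.75, against wildtype arrays not well above background, and 2.58, and *Slc38a1* lies far below it, at 2.60 and -0.15.

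Some facts of the whole series bear on these values. The share of spots well above background was 58.9 to 61.8% on the Schmid arrays, 48.0 to 59.4% for Wt_Schmid, 39.6 to 48.1% for Cog and 41.1 to 58.5% for Wt_Cog. The median over negative control spots was at most 617 on any Schmid array (lowest 202) and at least 977 on the other arrays (highest 1894). The 3 Schmid arrays were on 1 slide that held no other array of the 12. No mutant shared a slide with its control mice, which means that genotype and slide cannot be told apart. Among probes with a single spot, 9.84% were lower in Schmid in array rows 1 to 177 and 2.13% in rows 178 to 532, and where removing smooth trends over rows and over probe base composition, both at once, changed the call of a named gene at its brightest probe, the value is given with the gene. Collagen X itself (*Col10a1*), whose probe does not see the point mutation, stood at 14.21 ± 0.66 (SD, n = 3) in Schmid and 14.23 ± 1.43 in Wt_Schmid, and at 15.06 ± 0.35 in Cog and 14.06 ± 0.53 in Wt_Cog, and all 6 hypertrophic chondrocyte markers were above background on at least 1 array. Of 10 lists of cell type markers, the summed signal of 6 was lower on all 3 Schmid arrays than on all 3 Wt_Schmid arrays. With arrays set to a common 75th percentile in place of quantile normalization, the median of all probes in Schmid moved from -0.06 to -0.35, and the share of calls in Schmid that were higher went from 55.2% to 42.6%. With the scanner software's processed signal that share was 42% under quantile normalization, and with both changes it was 42.5% with a median of -0.40 in Schmid and 0.43 in Cog. The transporters higher and lower in Schmid were then 7 and 9, 6 and 10, and 6 and 12. The shares of all genes called under these settings were not counted, so these numbers cannot be set against the whole array.

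The heavy chain *Slc3a2* (4F2hc, CD98) was higher in both mutants. Its signal was 17.89, 17.91 and 17.94 on the Schmid arrays and 16.52, 16.37 and 16.00 on the Wt_Schmid arrays. It was 17.21, 17.52 and 17.59 on the Cog arrays and 16.38, 16.16 and 16.27 on the Wt_Cog arrays. Every mutant array lay above every wildtype array, and the Schmid arrays were the highest of all. In log2 terms Schmid differed from its wildtype by 1.62 ± 0.15 (3.07-fold, adjusted p = 0.00017), and Cog by 1.17 ± 0.15 (2.25-fold, adjusted p = 0.00476). The effects differed by 0.45 ± 0.21, which did not pass the test (adjusted p = 0.178). In Cog the value was 0.87 when arrays were set to a common 75th percentile and no longer passed (adjusted p = 0.0632, or 0.23 with the processed signal). The other probe for *Slc3a2* was well above background on 1 of 12 arrays and did not pass (0.36 in Schmid, adjusted p = 0.0997). The other heavy chain, *Slc3a1*, which serves the cystine and dibasic carrier of kidney and gut, was above background on 2 arrays and changed by 0.01 in Schmid and 0.23 in Cog.

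The cystine and glutamate exchanger light chain *Slc7a11* (xCT), which brings in cystine for glutathione, had the largest rise in Cog of the 55 genes. On the Schmid arrays its signal was 11.51, 11.84 and 11.54, and on the Wt_Schmid arrays 9.02, 8.56 and 9.07. On the Cog arrays it was 11.76, 12.02 and 11.11, and on the Wt_Cog arrays 8.73, 9.60 and 8.81. The mutants overlapped each other and stood clear of both wildtypes, where the probe was well above background on 0 of 3 Wt_Schmid and 1 of 3 Wt_Cog arrays. The rise in Schmid was therefore at least 4.25-fold, with a measured log2 fold change of 2.75 ± 0.28 (adjusted p = 0.000273). The rise in Cog was 5.98-fold, or 2.58 ± 0.28 on the log2 scale (adjusted p = 0.0022). The difference between the effects did not pass (adjusted p = 0.806), and since the Schmid rise is a bound its size is not given. Of the 4 probes for *Slc7a11*, 3 were higher in Schmid, the next brightest by 1.74 on the log2 scale and the third at least 2.23-fold, while the dimmest did not pass. In Cog 1 of the 4 passed, and the others gave 0.55, 0.83 and 0.34. At the next brightest probe, well above background on all Schmid arrays and on 1 array of each other group, the difference between the effects passed (1.19, adjusted p = 0.0342).

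The large neutral amino acid light chain *Slc7a5* (LAT1), which carries leucine, is another partner of *Slc3a2* and had the brightest probe of the 10 light chains. Its signal was 16.25, 16.08 and 16.14 in Schmid, against 13.90, 15.31 and 15.53 in Wt_Schmid. In Cog it was 16.51, 16.10 and 16.06, against 14.08, 14.84 and 15.27 in Wt_Cog. The mutant arrays lay close together above all wildtype arrays, which were spread. Relative to wildtype the log2 change for Schmid was 1.24 ± 0.40 (2.36-fold, adjusted p = 0.0485), while that for Cog was 1.496 ± 0.40 (2.82-fold, adjusted p = 0.066), so the gene passed in Schmid and not in Cog. The effects differed by -0.25 (adjusted p = 0.792). The Schmid call ended without any of the 3 Schmid arrays, Wt_Schmid 1 or 2, any of the 3 Cog arrays or Wt_Cog 2 (adjusted p = 0.0576 to 0.124), and without Wt_Schmid 1 the value was 0.74 in Schmid and the Cog difference passed (adjusted p = 0.0141). With the row and base composition trends removed the Schmid value was 0.96 and did not pass (adjusted p = 0.151).

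**Figure D2:**
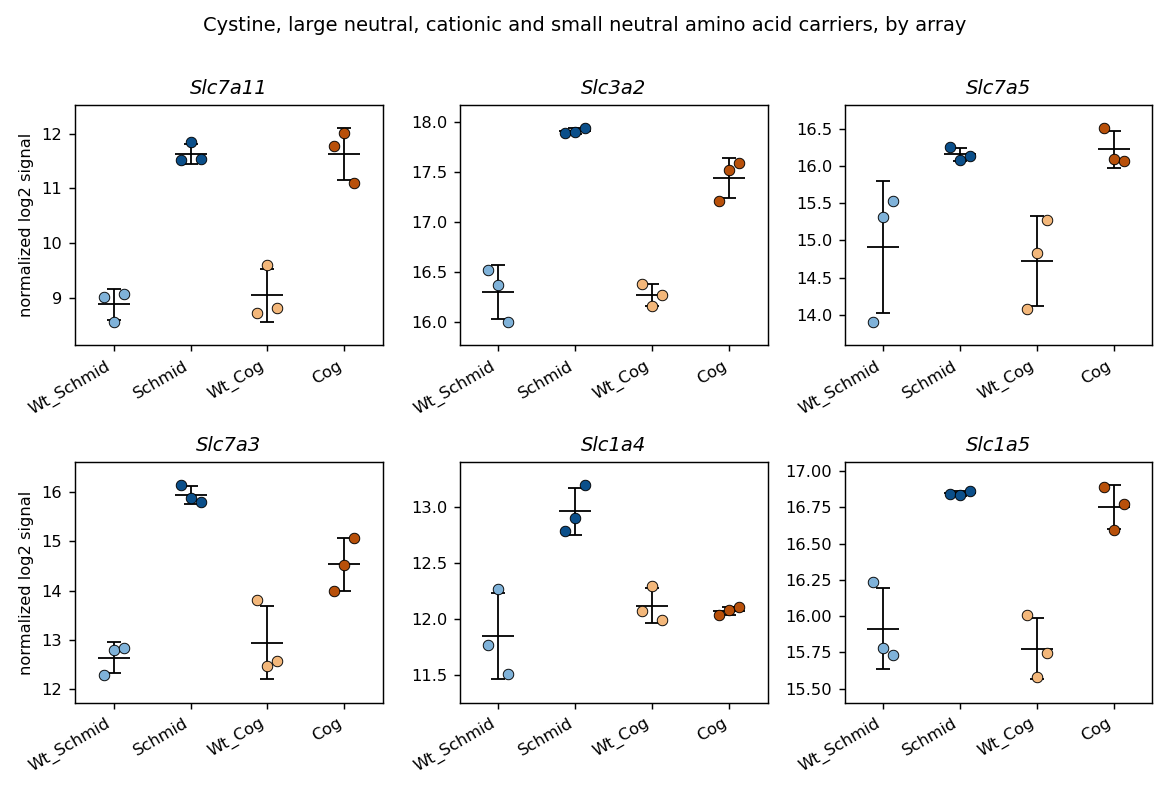
Normalized log2 signal (vertical axes, which differ between panels and do not start at 0) of 6 carriers on each of 12 arrays, by group; points are mice, horizontal bars means and whiskers SD of 3. For *Slc7a11*, *Slc3a2*, *Slc7a5*, *Slc7a3* and *Slc1a5* every mutant array lies above every array of its wildtype, and for *Slc1a4* only the Schmid arrays do.

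Of the other light chains, *Slc7a8* and *Slc7a15* were lower in Schmid. *Slc7a8* (LAT2), which also carries neutral amino acids, had signals of 9.69, 10.28 and 10.43 in Schmid and of 11.60, 12.15 and 11.91 in Wt_Schmid. The Cog arrays gave 10.88, 10.90 and 11.69, and the Wt_Cog arrays 11.97, 11.04 and 11.18. The Schmid arrays were the lowest of the 12, and the Cog arrays overlapped their wildtype. Schmid minus wildtype came to -1.75 ± 0.31 on the log2 scale (3.37-fold lower, adjusted p = 0.00342), and Cog minus wildtype to -0.24 (adjusted p = 0.704). The difference between these effects passed (-1.52, adjusted p = 0.0408), but not without any of the 3 Schmid arrays, Wt_Schmid 2 or 3, Cog 3, or Wt_Cog 2 or 3 (adjusted p = 0.0506 to 0.0963).

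*Slc7a15*, a light chain gene of mouse, was well above background on none of the Schmid arrays, where its signal was 9.38, 9.30 and 9.33, and on all Wt_Schmid arrays, at 10.33, 10.58 and 10.60. As a bound it was 2.22-fold lower in Schmid (adjusted p = 0.00106), with a log2 fold change of 0.37 in Cog (adjusted p = 0.228). The bound is not firm, since the lowest signal well above background was 5.96 on Schmid 1. The probe's own signal was used on that array. Its probe lay in array row 27, and the Schmid log2 fold change went from -1.17 to -0.89 with the row and base composition trends removed, which is under 2-fold. *Slc7a7* (y+LAT1), which carries cationic with neutral amino acids, gave -0.98 in Schmid (adjusted p = 0.0279) and did not reach 2-fold. *Slc7a9*, the light chain partner of *Slc3a1*, did not pass in Schmid (0.57, adjusted p = 0.295) or Cog (-1.35, adjusted p = 0.0782). The difference between its effects did, at 1.92 ± 0.54 (adjusted p = 0.038), but not without any of 10 of the 12 arrays, the exceptions being Wt_Schmid 3 and Cog 1 (adjusted p = 0.0549 to 0.085), nor with the row and base composition trends removed (1.68, adjusted p = 0.0719). Without either of those 2 arrays the fall in Cog passed (-1.35 and -1.78, adjusted p = 0.0439 and 0.0273). Of the 10 light chains, 2 were higher and 2 lower in Schmid, where 5.8% and 5.75% of all genes were, and 1 was higher in Cog, where 1.89% were.

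Among carriers of cationic amino acids, *Slc7a3* (CAT3) had the largest rise of any transporter in Schmid. Its signal was 16.14, 15.89 and 15.80 on the Schmid arrays and 12.28, 12.80 and 12.84 on the Wt_Schmid arrays. On the Cog arrays it was 14.00, 14.53 and 15.06, and on the Wt_Cog arrays 13.81, 12.47 and 12.56. The Cog arrays stood between Schmid and wildtype, above all Wt_Cog arrays. In log2 terms Schmid differed from its wildtype by 3.30 ± 0.36 (9.86-fold, adjusted p = 0.000349), and Cog by 1.59 ± 0.36 (3-fold, adjusted p = 0.0366). The rise was larger in Schmid by 1.72 ± 0.51 (adjusted p = 0.0457). That difference did not pass with the row and base composition trends removed (1.37, adjusted p = 0.0885). Nor did it without any Schmid or Wt_Schmid array, Cog 1 or 2, or Wt_Cog 1 (adjusted p = 0.0558 to 0.098). The Cog call ended without any Schmid array, Wt_Schmid 2, Cog 2 or 3, or Wt_Cog 2 or 3 (adjusted p = 0.0512 to 0.136).

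*Slc7a1* (CAT1), the widely expressed carrier of arginine and lysine, had changes of opposite sign in the mutants. Its signal was 13.54, 11.48 and 13.79 in Schmid and 13.59, 14.99 and 14.83 in Wt_Schmid. In Cog it was 15.78, 15.12 and 15.74, and in Wt_Cog 14.21, 13.74 and 14.18. The Cog arrays lay above their wildtype, while the Schmid arrays overlapped theirs and Schmid 2 lay far below the rest. The Schmid log2 fold change of -1.53 ± 0.56 did not pass alone (adjusted p = 0.0719), nor did the Cog one of 1.504 ± 0.56 (adjusted p = 0.158). The difference between them passed, at -3.04 ± 0.80 (adjusted p = 0.0282), and the 95% interval ran from -4.80 to -1.27. Without Schmid 2 the Schmid value was -0.80 and the difference -2.31, which still passed. The difference lost its call without Wt_Schmid 2 or 3, Cog 1 or 3, or Wt_Cog 2 (adjusted p = 0.0566 to 0.0694). Without Wt_Schmid 1 the fall in Schmid passed by itself (adjusted p = 0.0296). The remaining 3 cationic carriers (*Slc7a2*, *Slc7a4*, *Slc7a14*) passed in neither mutant.

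The neutral amino acid exchangers *Slc1a4* (ASCT1) and *Slc1a5* (ASCT2) had higher signals on all Schmid arrays than on all Wt_Schmid arrays. *Slc1a4*, which carries alanine, serine and cysteine, had signals of 12.78, 12.90 and 13.19 in Schmid and of 11.77, 12.27 and 11.51 in Wt_Schmid. Signals in Cog were 12.03, 12.08 and 12.11, within the Wt_Cog range of 11.99 to 12.29. Relative to wildtype the log2 change for Schmid was 1.11 ± 0.19 (2.16-fold, adjusted p = 0.00259), while that for Cog was -0.05 (adjusted p = 0.913). The difference passed (1.16, adjusted p = 0.0155), and no longer did with the row and base composition trends removed (0.84, adjusted p = 0.0643). The Schmid value fell under 2-fold with those trends removed (0.845, adjusted p = 0.0119) and without Schmid 3 or Wt_Schmid 3 (0.997 and 0.94), and the difference did so without Wt_Schmid 3 (0.99). The other probe for *Slc1a4* gave 0.38 in Schmid (adjusted p = 0.43).

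*Slc1a5*, the glutamine carrier, was just under 2-fold in both mutants. Its signal was 16.84, 16.83 and 16.86 in Schmid against 16.23, 15.78 and 15.73 in Wt_Schmid, and 16.89, 16.59 and 16.77 in Cog against 16.00, 15.58 and 15.74 in Wt_Cog. Mutant and wildtype arrays did not overlap in either comparison. Schmid minus wildtype came to 0.93 ± 0.16 on the log2 scale (adjusted p = 0.00283), and Cog minus wildtype to 0.97 ± 0.16 (adjusted p = 0.0113), and the effects differed by -0.04 (95% interval -0.54 to 0.46). It passed 2-fold in Schmid without Wt_Schmid 1 (1.09) and in Cog without Cog 2 or Wt_Cog 1 (up to 1.09), and in Cog also with the row and base composition trends removed (1.098, adjusted p = 0.00745).

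The sodium-coupled neutral carriers *Slc38a1* (SNAT1) and *Slc38a2* (SNAT2), which both take up glutamine and alanine, moved apart in Schmid. *Slc38a1* had signals of 13.56, 13.07 and 13.41 in Schmid and of 11.13, 10.58 and 10.54 in Wt_Schmid. In Cog they were 10.48, 11.22 and 10.47, and in Wt_Cog 10.77, 11.23 and 10.62. The Schmid arrays stood alone above the other 9. In log2 terms Schmid differed from its wildtype by 2.60 ± 0.26 (6.06-fold, adjusted p = 0.000227), and Cog by -0.15 (adjusted p = 0.783), and the effects differed by 2.75 ± 0.36 (adjusted p = 0.00131). Leaving out any array kept this difference between 2.57 and 2.998.

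*Slc38a2* had signals of 14.31, 13.70 and 13.67 in Schmid and of 15.66, 15.45 and 15.21 in Wt_Schmid. The Cog arrays gave 14.66, 15.00 and 16.16, and the Wt_Cog arrays 16.35, 16.09 and 16.02. The Schmid arrays lay below all others, and of the Cog arrays only replicate 3 reached its wildtype. Relative to wildtype the log2 change for Schmid was -1.55 ± 0.34 (2.92-fold lower, adjusted p = 0.00965), while that for Cog was -0.88 ± 0.34 (adjusted p = 0.168). Without Cog 3 the Cog value was -1.32 and passed (adjusted p = 0.0205). The effects differed by -0.67 (adjusted p = 0.362).

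*Slc38a1*, *Slc38a2* and *Slc38a4* are neighbours on chromosome 15, and their probes had coordinates in the array design's build (mm7). The brightest probes lay at chr15:96577437-96577496 for *Slc38a1* and chr15:96691104-96691163 for *Slc38a2*, 113667 bases apart. All 6 probes named *Slc38a1* were tested, and the 2 brightest were higher in Schmid (2.60 and 2.38). The other 3 on that side were well above background on all Schmid and on none of the Wt_Schmid arrays, and bounded the rise only at 1.81-, 1.52- and 1.28-fold or more, though 2 of them passed by their measured values. The sixth probe was lower, by 2.17-fold as a bound (adjusted p = 0.000704), and was well above background on none of the Schmid arrays. That bound is not firm, for the reason given for *Slc7a15*. It lay at chr15:96640755-96640814, which is 63318 bases from the brightest and towards *Slc38a2*, in array row 19, and the array's annotation gave it a cDNA accession of its own. With the row and base composition trends removed it was still lower, at -1.02 (adjusted p = 0.00207). Of the 4 probes for *Slc38a2*, 3 were lower in Schmid (-1.55, -2.44 and -1.74), and the fourth, whose wildtype arrays spanned 13.76 to 16.20, gave -0.44 (adjusted p = 0.684). The probe with -2.44 also passed for the difference between the effects (-1.87, adjusted p = 0.0126). *Slc38a4* did not pass (-0.71, adjusted p = 0.3), and neither did *Slc38a3* (-0.99, adjusted p = 0.014) or *Slc38a5* (-0.72, adjusted p = 0.195).

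**Figure D3:**
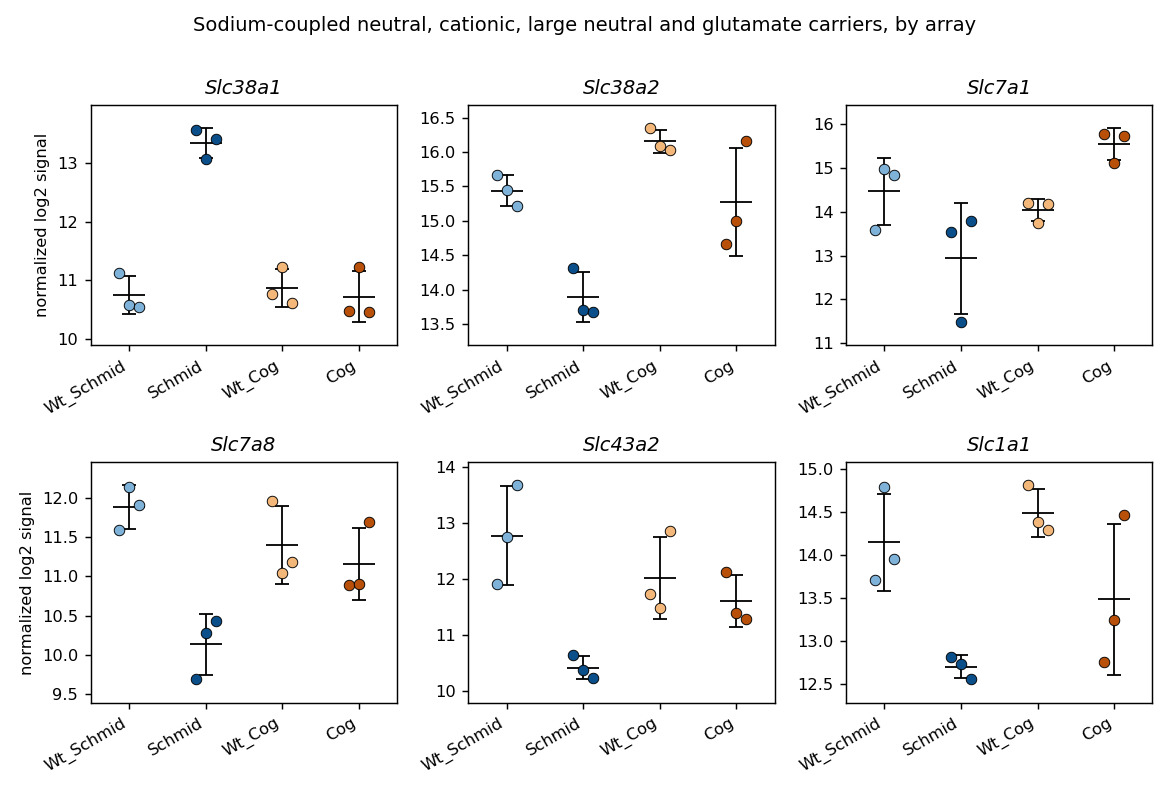
Normalized log2 signal (vertical axes, which differ between panels and do not start at 0) of 6 further carriers on each of 12 arrays, by group; points are mice, horizontal bars means and whiskers SD of 3. *Slc38a1* is high on the 3 Schmid arrays alone, *Slc38a2*, *Slc7a8* and *Slc43a2* are lowest there, *Slc1a1* lies below its wildtype there, and *Slc7a1* has 1 Schmid array at 11.48 while the Cog arrays lie above their wildtype.

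The other carriers lower in Schmid came from several families. *Slc43a2* (LAT4), a facilitative carrier of branched-chain amino acids, had signals of 10.65, 10.38 and 10.24 in Schmid and of 11.91, 12.74 and 13.67 in Wt_Schmid. Those groups did not overlap, although the Wt_Schmid arrays were widely spread. The Cog arrays, at 12.13, 11.41 and 11.29, overlapped the Wt_Cog arrays, at 11.73, 11.48 and 12.86. The log2 fold change was -2.35 ± 0.46 (5.11-fold lower, adjusted p = 0.00546), beside -0.41 in Cog (adjusted p = 0.65), and the effects differed by -1.94 (adjusted p = 0.0663). The dimmer probe for *Slc43a2* gave -0.08 in Schmid. *Slc43a1* (LAT3) and *Slc43a3* did not pass in either mutant, with -0.29 and -0.22 in Schmid.

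*Slc1a1* (EAAC1), which carries glutamate, aspartate and cysteine, was lower in Schmid on both probes and in Cog on 1. The brightest probe had signals of 12.82, 12.74 and 12.56 in Schmid and of 13.72, 14.79 and 13.95 in Wt_Schmid. Signals in Cog were 12.76, 13.25 and 14.46, and in Wt_Cog 14.81, 14.38 and 14.29. The Schmid arrays lay together under their wildtype, and Cog 3 reached the Wt_Cog range. Schmid minus wildtype came to -1.45 ± 0.40 on the log2 scale (adjusted p = 0.0262), and Cog minus wildtype to -1.01 ± 0.40 (adjusted p = 0.181). At the dimmer probe the Schmid value was -1.92 ± 0.35 (adjusted p = 0.00385) and the Cog value -2.02 ± 0.35 (adjusted p = 0.0137), with Cog signals of 11.81, 11.89 and 11.46 below Wt_Cog signals of 12.92, 14.16 and 14.16. This was the only transporter probe lower in Cog, where 0.748% of all probes were lower. The Schmid call of the brightest probe ended without any Schmid array or without Wt_Schmid 2 or 3 (adjusted p = 0.0509 to 0.102), and the Cog value passed without Cog 3 (-1.49, adjusted p = 0.0371). The other 4 glutamate carriers passed in neither mutant, and *Slc1a7* was above background on no array.

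*Slc36a2* (PAT2), a proton-coupled carrier of glycine and proline, had signals of 9.59, 10.53 and 10.13 in Schmid and of 12.59, 12.39 and 11.71 in Wt_Schmid. Its log2 fold change was -2.14 ± 0.50 (4.41-fold lower, adjusted p = 0.0125), beside -0.70 in Cog (adjusted p = 0.453). The highest Schmid array was under the lowest Wt_Schmid array, whereas the Cog arrays (10.74, 10.12 and 11.52) overlapped the Wt_Cog arrays (12.58, 11.15 and 10.76). Without Schmid 1 the Schmid call ended (adjusted p = 0.0521). The dimmer probe for *Slc36a2* was well above background on none of the 12 arrays. *Slc36a3*, its neighbour on chromosome 11, gave 0.11 in Schmid and 0.19 in Cog at its brightest probe, and its 2 dimmer probes, in rows 144 and 23, passed for the difference between the effects (-1.30 and -1.01). With the row and base composition trends removed these differences were -1.04 and -0.31 (adjusted p = 0.0396 and 0.35).

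In the Slc6 family of sodium- and chloride-coupled carriers 2 genes passed in Schmid, and both belong to the carriers of GABA, taurine, betaine and creatine. That class has 6 genes, of which 1 was higher and 1 lower in Schmid, where 5.8% and 5.75% of all genes were. *Slc6a12* (BGT1), which carries betaine and GABA, had signals of 12.83, 13.14 and 13.15 in Schmid, above 11.36, 11.78 and 11.32 in Wt_Schmid. In Cog they were 11.88, 11.13 and 10.81, and in Wt_Cog 10.82, 11.09 and 11.29, so only the Schmid arrays stood apart. In log2 terms Schmid differed from its wildtype by 1.55 ± 0.26 (2.93-fold, adjusted p = 0.00238), and Cog by 0.21 (adjusted p = 0.69). The difference was 1.34 ± 0.36 (adjusted p = 0.0312). It did not pass without Schmid 2 or 3, Wt_Schmid 3, Cog 2 or 3, or Wt_Cog 2 or 3 (adjusted p = 0.0559 to 0.0697). *Slc6a12* lay in array row 42, and its Schmid value was 2.04 with the row and base composition trends removed.

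*Slc6a11* (GAT3), a carrier of GABA, had signals of 9.76, 9.95 and 9.99 in Schmid and of 10.89, 11.65 and 11.71 in Wt_Schmid. The Cog arrays gave 11.74, 11.44 and 11.78, above 11.32, 10.94 and 10.95 in Wt_Cog. The mutants thus lay on opposite sides of their wildtypes. Relative to wildtype the log2 change for Schmid was -1.52 ± 0.22 (2.86-fold lower, adjusted p = 0.00114), while that for Cog was 0.59 ± 0.22 (adjusted p = 0.151), and the effects differed by -2.10 ± 0.30 (adjusted p = 0.00198). Its probe lay in array row 104, and with the row and base composition trends removed the Schmid value was -1.004 and the difference -1.47 (adjusted p = 0.00629 and 0.00958). The other probe, in row 502, gave 0.02 in Schmid and -0.35 in Cog.

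The creatine carrier *Slc6a8* had lower mean signals in both mutants without reaching 2-fold. Its signal was 13.26, 13.20 and 13.06 in Schmid against 13.85, 14.26 and 13.94 in Wt_Schmid, and 13.75, 13.81 and 13.57 in Cog against 14.97, 14.52 and 14.57 in Wt_Cog. The groups did not overlap in either comparison. Schmid minus wildtype came to -0.84 on the log2 scale (adjusted p = 0.00409), and Cog minus wildtype to -0.98 (adjusted p = 0.01). The probe lay in array row 77. With the row and base composition trends removed the Schmid value was -0.57, while the Cog value was -1.11 and passed (adjusted p = 0.00865). *Slc6a8* is outside the naming rule and was named after its values were seen.

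None of the 9 Slc6 carriers of amino acids passed in a mutant. Of all genes 5.8% were higher and 5.75% lower in Schmid, and 1.89% and 0.837% in Cog. A count of 0 among 9 therefore does not set these carriers apart. *Slc6a9* (GlyT1), which carries glycine, was among the 5 transporters with the brightest probes, with *Slc3a2*, *Slc1a5*, *Slc7a5* and *Slc38a2*. Its signal was 15.55, 16.50 and 16.36 in Schmid, 15.72, 16.78 and 16.73 in Wt_Schmid, 17.19, 16.77 and 16.98 in Cog, and 16.45, 16.66 and 16.82 in Wt_Cog. The groups overlapped in both comparisons, with a log2 fold change of -0.27 for Schmid (adjusted p = 0.549) and one of 0.34 for Cog (adjusted p = 0.578). *Slc6a14*, a carrier of neutral and cationic amino acids, had a Schmid value of -0.99 (adjusted p = 0.00122) beside 0.14 for Cog. The difference between these passed (-1.13, adjusted p = 0.0053). Its probe lay in row 81, and with the row and base composition trends removed the difference was -0.77 (adjusted p = 0.0306), under 2-fold. The fall of *Slc6a14* in Schmid passed 2-fold without Schmid 1 (-1.09) or Wt_Schmid 1 (-1.14).

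The 22 transporters described by rule are drawn with their intervals in the plot of effects and differences. The difference between the effects passed at the brightest probe for 5 genes in the direction of a higher value in Schmid and for 6 in the direction of a lower one, where 4.38% and 7.02% of all genes did so. The 5 were *Slc38a1*, *Slc7a9*, *Slc7a3*, *Slc6a12* and *Slc1a4*, and the 6 were *Slc7a1*, *Slc6a11*, *Slc7a15*, *Slc7a8*, *Slc6a14* and *Slc1a7*. Of the 6, *Slc6a11*, *Slc7a15*, *Slc6a14* and *Slc1a7* have their brightest probe in array rows 27 to 104. *Slc1a7* was above background on no array, so its difference of -1.09 is between values at background, with the row and base composition trends removed it was -0.60, and with the processed signal under quantile normalization it was 0.30.

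**Figure D4:**
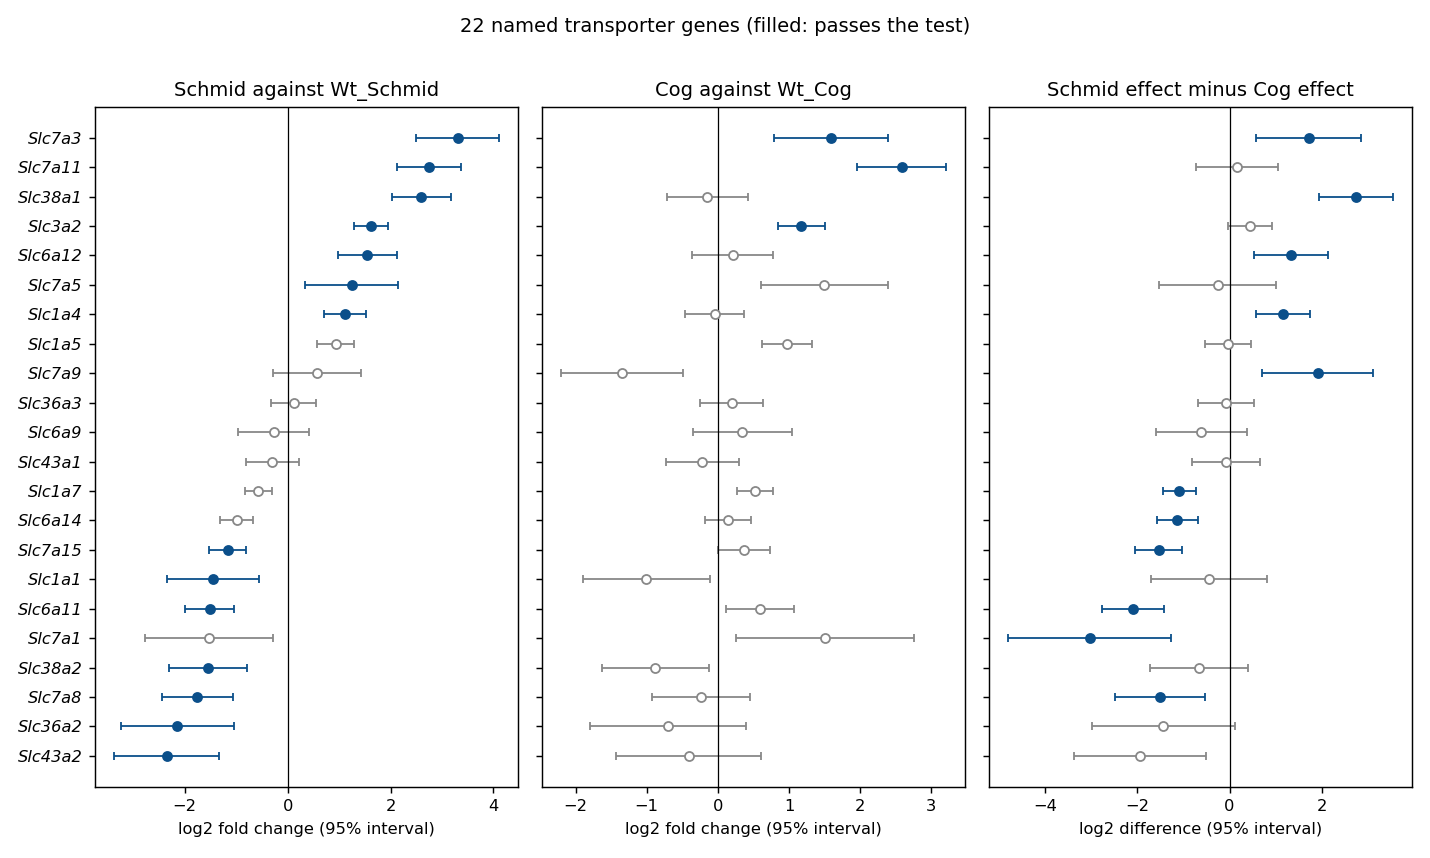
Log2 fold change with its 95% interval for 22 transporter genes in Schmid against Wt_Schmid (left), in Cog against Wt_Cog (middle) and the Schmid effect minus the Cog effect (right), at the brightest probe of each; filled points passed the test. *Slc7a11* and *Slc3a2* are raised in both and neither difference passed, and *Slc38a1* and *Slc7a1* have the largest differences, 2.75 and -3.04.

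For single probes the difference between the effects passed for 8 in the higher and 10 in the lower direction, where 4.38% and 5.88% of all probes did. Between the wildtype groups no transporter differed in either direction by limma's adjusted p and 2-fold change, where 0.272% and 0.283% of all genes were higher and lower in Wt_Schmid, and 11 of 55 had an unadjusted p of 0.05 or less. The share of all genes with such an unadjusted p was not counted. None of the 95 probes passed there, where 0.233% and 0.236% of all probes did. Counted by arrays, 9 transporters were above all wildtype arrays on all 3 Schmid arrays and 17 below, where 18.7% and 27.7% of all genes were. In Cog 16 were above and 3 below, where 17.2% and 13.3% of all genes were.

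For 26 of the 55 genes there was more than 1 probe, and in 9 of them the probes differed in whether they passed in Schmid. Over all 95 probes, 12 were higher and 11 lower in Schmid, where 5.78% and 4.69% of all probes were, and 3 were higher in Cog, where 1.56% were. The probe plot shows that *Slc38a1* alone had probes passing in opposite directions. Of the 7 genes lower in Schmid at the brightest probe, *Slc1a1* had every probe lower, *Slc38a2* had 3 of 4, and *Slc43a2*, *Slc36a2*, *Slc6a11* and *Slc7a15* had 1 of 2, while *Slc7a8* had a single probe. Removing the row and base composition trends left 5 genes higher and 6 lower in Schmid, all among the 7 and 7. The shares of all genes called with these trends removed were not counted.

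**Figure D5:**
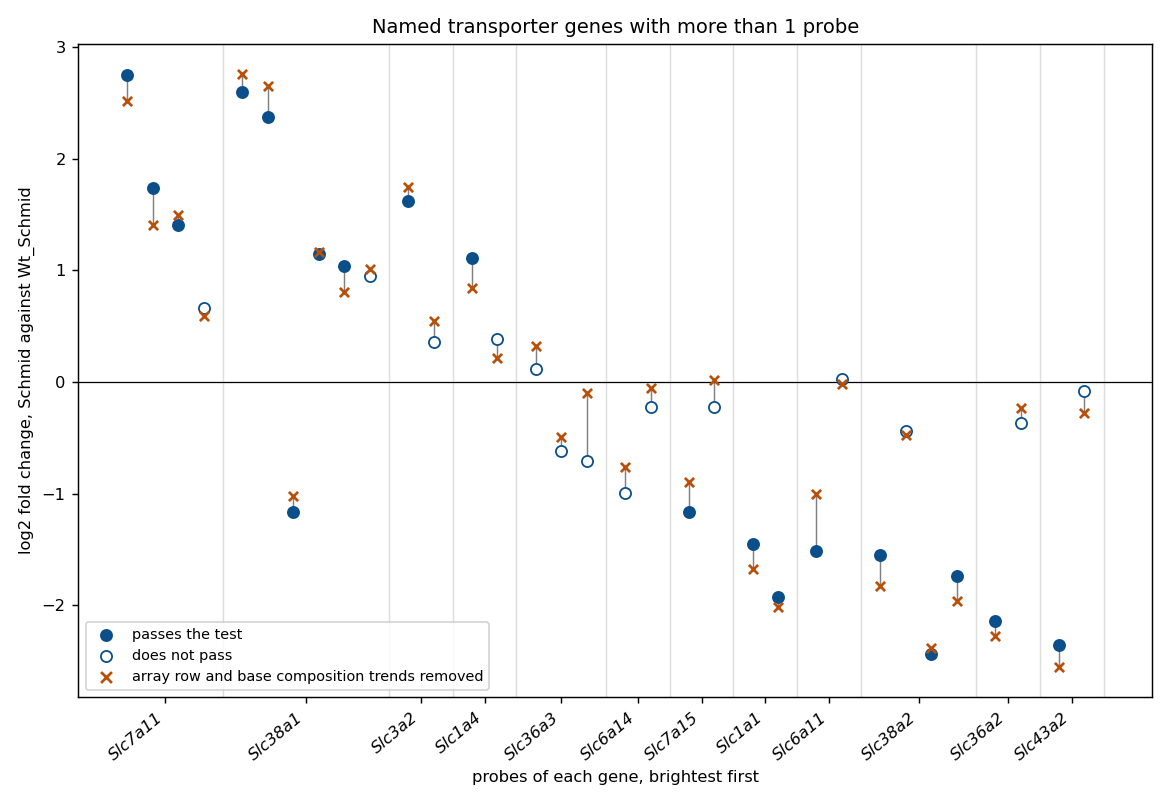
Log2 fold change in Schmid of every probe of the named transporter genes with more than 1 probe, brightest first within a gene; filled circles passed the test, open circles did not, and crosses are the values after smooth trends over array rows and probe base composition were removed. The probes of *Slc38a1* run from 2.60 to -1.16, and those of *Slc1a1* lie together at -1.45 and -1.92.

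Of the 10 lists of cell type markers, 6 had a lower sum on all Schmid arrays, the cartilage list among them. Of all genes 27.7% lay below all Wt_Schmid arrays on all Schmid arrays, and 5.75% passed as lower. The summed log2 signal of 7 red cell markers was 14.67 to 16.10 on the Schmid arrays and 17.95 to 19.95 on the Wt_Schmid arrays, and 3 of the 7 genes passed as lower. For 6 endothelial markers it was 12.49 to 13.01 against 14.22 to 14.97, with 3 genes lower, and the endothelial marker *Pecam1* was not well above background in either group. For 6 osteoclast markers it was 13.70 to 14.22 against 15.21 to 16.51, with 1 gene lower. That gene was *Mmp9* (-2.81, adjusted p = 0.00363), whose probe was the brightest of the list. *Calcr* and *Oscar* were lower by less than 2-fold (-0.36 and -0.62). *Acp5*, *Ctsk* and *Tm7sf4* overlapped between the groups, and *Tm7sf4* gave 0.30. For 6 markers of proliferating cells the sum was 12.98 to 13.28 against 14.78 to 15.69, with 2 genes lower. For 5 osteoblast markers it was 17.25 to 18.23 against 18.55 to 19.73, with 1 lower. The study lists *Mmp9* as a hypertrophic cartilage marker, and counts it and *Ibsp*, of the osteoblast list, among hypertrophic zone genes. Cartilage markers also lay lower on all Schmid arrays, at 20.54 to 20.71 against 20.82 to 21.11, and 0 of 7 passed. In Cog the endothelial sum was 13.51 to 14.31 against 14.56 to 14.90, and 0 of 6 genes passed. Marrow myeloid markers were higher in Cog, at 14.91 to 16.98 against 13.67 to 14.20, with 1 of 8 genes higher. In that comparison 1.89% of all genes passed as higher and 0.837% as lower. In Schmid the marrow myeloid sum, at 12.64 to 15.43, overlapped that of Wt_Schmid, at 13.72 to 18.72, with 1 of 8 genes lower (*Prtn3*, -2.21, adjusted p = 0.000451) and a median log2 fold change of -2.11. The sums of leukocyte, skeletal muscle and hypertrophic chondrocyte markers overlapped between Schmid and Wt_Schmid, with 1 of 6, 0 of 6 and 1 of 6 genes lower, the last being *Ihh*. The part of these cells in the lower values of *Slc43a2*, *Slc36a2*, *Slc7a8*, *Slc38a2*, *Slc6a11*, *Slc1a1* and *Slc7a15* was not tested, and in bulk tissue fewer cells of a type and less RNA per cell cannot be told apart.

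Of 19 genes on the array that regulate amino acid transport under stress, 11 were higher and 0 lower in Schmid, and 5 were higher and 0 lower in Cog, with median log2 fold changes of 1.44 and 0.46. Of all genes 5.8% were higher and 5.75% lower in Schmid, and 1.89% and 0.837% in Cog. The largest in Schmid were *Ddit3* (Chop), a transcription factor induced by *Atf4*, at 4.49 in Schmid and 3.66 in Cog, *Trib3*, an inhibitor of Akt and *Atf4*, at 2.97 and 2.48, and *Atf3*, a stress-induced transcription factor, at 2.97 and 2.12. All 6 values passed, with adjusted p values from 7.88e-06 to 0.00337. In Cog *Atf6*, a sensor of unfolded protein named after its values were seen, stood above *Atf3* at 2.47 (adjusted p = 0.00105), with 1.58 in Schmid. The transcript of *Atf4*, which is regulated largely by translation, did not pass (-0.19 and -0.15), while *Eif2ak3*, which encodes Perk, passed in Schmid at 2.50 (adjusted p = 0.0208) and gave 1.21 in Cog (adjusted p = 0.321).

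Cystine brought in by *Slc7a11* feeds glutathione synthesis. Of 19 genes of cysteine supply, glutathione synthesis and use, and antioxidant defence, 6 were higher and 0 lower in Schmid (5.8% and 5.75% of all genes), and 2 higher and 0 lower in Cog (1.89% and 0.837% of all genes). The enzymes that build glutathione did not pass in either mutant, with 0.18 in Schmid for *Gclc* and 0.56 for *Gss*, while *Gclm* was not well above background in Wt_Schmid. The 6 were *Cth*, *Hmox1*, *Chac1*, the sulfiredoxin *Srxn1* (1.94) and the glutathione peroxidases *Gpx3* (1.47) and *Gpx4* (1.15), and of the genes in these sentences all but the first 3 of the 6 were named after their values were seen. *Cth*, which makes cysteine from cystathionine, rose by 3.35 in Schmid (adjusted p = 0.00197), while the Cog value of 1.57 did not pass (adjusted p = 0.123). *Hmox1*, heme oxygenase, gave 2.36 and 1.20, and *Chac1*, which breaks down glutathione, 2.35 and 1.93, and both passed in both mutants. A list of 22 genes held those of amino acid sensing by mTORC1, other regulators of mTORC1 and its substrates. Of these, 6 were higher and 0 lower in Schmid, where 5.8% and 5.75% of all genes were. The largest were the Rag GTPase *Rraga* at 2.11 (adjusted p = 0.00139), *Seh1l*, a subunit of the activating GATOR2 complex, at 1.70 and the leucyl-tRNA synthetase *Lars* at 1.62. In Cog 1 was higher (*Lars*, 1.31, adjusted p = 0.00226) and 1 lower (*Depdc5*, a subunit of the inhibitory GATOR1 complex, -1.13, adjusted p = 0.0158), where 1.89% and 0.837% of all genes were. Of 23 other carriers of amino acids and peptides only *Slc16a10* (TAT1), an aromatic amino acid carrier, passed, at 1.19 in Schmid (adjusted p = 0.0172), with -0.03 in Cog, and the medians of that list were 0.01 and -0.02. A count of 1 in 23 is near the 5.8% of all genes that were higher in Schmid.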

How the data were processed

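Arrays of 12 mice (4 groups of 3) were analysed. The authors deposited, per array, the scanner output of Agilent Feature Extraction 9.5.3, with spot intensity and local background not normalized between arrays, and a series matrix of log2 values after normexp and quantile normalization, which correlated with the values made here at 0.99987 or more on every array. As in the study's methods, intensities were corrected with normexp (offset 50) and quantile normalized without control spots, and spots of a probe were averaged. Outlier-flagged spots (0.195%) were treated as missing.

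Group means were fitted with limma 3.58.1 (R 4.3.3, with the package data.table, version 1.17.8) on all 12 arrays, with 8 residual degrees of freedom, and Benjamini-Hochberg adjustment ran over 41174 probes. A call needed an adjusted p no higher than 0.05 with at least a 2-fold change. A gene was taken at its brightest probe. Groups came from the sample titles. Each array is 1 mouse, so p values rest on the spread between mice of a group, which includes differences in handling and between arrays. They take no account of a slide difference between a mutant and its control mice. Where none of a group's arrays measured a probe well above background, the fold is a bound against the lowest signal well above background. That signal was 5.96 on Schmid 1 and 6.19 on Wt_Cog 2, and 9.30 or more on the others. On those arrays the probe's own signal was used where it was higher, so bounds with Schmid or Wt_Cog as the lower group are not firm. Named were genes with a called probe (19), a set of known stress-responsive carriers (10 of 12 on the array) and the 5 brightest, 22 in all, and the 3 largest calls of each pathway list. *Slc38a7* and *Slc38a9* had no probe under those names and were not analysed here. The genes and lists were chosen with earlier results of these data known.

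Alternatives were other background and scaling, the series matrix, a filter on dim probes, removal of trends over array rows (spline of 8 degrees of freedom) and probe GC (4), slide as a random block, a replicate block, array weights, the arrays of each comparison alone, the mean of all probes of a gene, leaving out each array, and, added after the data were seen, scan day as a term, which is the same fit as leaving out Wt_Schmid 3, the only array of its group scanned on the other day. Coordinates of probes are those of the array design (mm7), and promoters are from RefSeq (GRCm38.p6). The procedure was tested on simulated arrays with independent noise and no slide effect, so that test does not bear on differences between slides.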

Additional observations from a re-analysis of the deposited data

Results flagged for a closer look

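The effects of the mutants differed by limma's test of the difference itself at 18 probes of 14 transporters, each at least 2-fold and with an adjusted p no higher than 0.05. At the brightest probe the Schmid effect was higher for *Slc38a1* (2.75), *Slc7a9* (1.92), *Slc7a3* (1.72), *Slc6a12* (1.34) and *Slc1a4* (1.16). It was lower for *Slc7a1* (-3.04), *Slc6a11* (-2.10), *Slc7a15* (-1.54), *Slc7a8* (-1.52), *Slc6a14* (-1.13) and *Slc1a7* (-1.09). At dimmer probes it was higher for *Slc38a1* (3.15 and 1.32) and *Slc7a11* (1.19), whose brightest probe did not pass, and lower for *Slc38a1* (-1.66), *Slc38a2* (-1.87) and *Slc36a3* (-1.30 and -1.01). For *Slc7a15*, *Slc1a7*, the values 1.32 and -1.66 of *Slc38a1*, and *Slc36a3*, at least 1 group was well above background on no array, so the sizes of those differences are of measured values and not settled. Groups of 3 were too small for a search for outlying arrays.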

How the results depend on the processing

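For each comparison 24 alternatives were run, 12 of which left out 1 array, and the scan day term is the same fit as leaving out Wt_Schmid 3. Of 1306 values of named genes, 1148 kept their direction and their side of the threshold, 110 lost and 29 gained a call, and 19 changed sign. In Schmid 7 of 14 calls held under every alternative (*Slc7a3*, *Slc38a1*, *Slc7a11*, *Slc38a2*, *Slc43a2*, *Slc7a8* and *Slc6a12*), and in Cog 1 of 3 (*Slc7a11*). The random block for slide had an estimated correlation of -0.1222. No mutant shared a slide with its control mice, so calls that held under that block are not cleared of a slide effect. Genes lower in Schmid numbered 12 with the processed signal at a common 75th percentile. Genes higher in Cog then numbered 1, and 5 with array weights. Genes lower in Cog numbered 2 under array weights, and 1 for the processed signal under quantile normalization, normexp at the 75th percentile, trends removed, slide as a random block, the mean of all probes, or scan day. Positive differences numbered 2 with the processed signal under either scaling, trends removed, or scan day, and negative ones 3 with the mean of all probes. Leaving out 1 array gave 5 to 7 higher and 6 to 11 lower in Schmid, 2 to 4 higher and 0 to 2 lower in Cog, and 2 to 4 positive and 4 to 8 negative differences; 11 were lower without Wt_Schmid 1 and 2 lower in Cog without Cog 3. For the alternatives the shares of all genes called were not counted, so these counts cannot be set against the whole array. The cause of these shifts was not tested.

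With the replicate number as a block, 7 were higher and 7 lower in Schmid, 2 higher in Cog (*Slc7a3*, adjusted p = 0.0649), and 3 differences were positive and 5 negative, those of *Slc7a3*, *Slc6a12* and *Slc7a8* being lost. Same-numbered deviations correlated at 0.193, 0.171 and 0.066 for Schmid with Wt_Schmid and at -0.116, 0.072 and -0.106 for Cog with Wt_Cog, and over probes above background on all arrays at 0.306, 0.283 and 0.117, and -0.209, 0.153 and -0.201. The numbers were not taken to pair the mice.

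Of the changes of sign, all but the *Slc1a7* difference were of values that had not passed. Leaving out 1 array gave, in Cog, -0.3996 to 0.0299 for *Slc38a1*, -0.111 to 0.0394 for *Slc1a4*, -0.6837 to 0.0065 for *Slc43a2*, -0.5062 to 0.0455 for *Slc7a8* and -0.0971 to 0.4385 for *Slc6a12*, and in Schmid -0.1097 to 0.3187 for *Slc36a3* and -0.6202 to 0.0226 for *Slc6a9*. The mean of all probes gave *Slc43a2* 0.0937 and *Slc1a4* 0.1041 in Cog, and *Slc1a4* was 0.1986 and 0.0897 with the processed signal under quantile and 75th percentile scaling and 0.0044 with trends removed. *Slc36a3* in Schmid was -0.1798 and -0.0078 at the 75th percentile with normexp and the processed signal, -0.4034 for the mean of all probes and -0.0081 under array weights. With the processed signal under quantile normalization *Slc1a7* was 0.12 in Schmid and -0.18 in Cog, with a difference of 0.30. Array signal over background, lowest in Cog, limits what could be measured for dim probes.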
